A study of Mus musculus with 16 samples.

Results

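A set of 8 long noncoding RNA genes was followed through 16 RNA-seq libraries of C2C12 cells. This mouse line grows as myoblasts in serum and forms multinucleated myotubes once the serum is reduced. The set holds *Malat1*, *Neat1* and *Miat*, whose transcripts stay in the nucleus, and *Gas5*, *Snhg1*, *Snhg3*, *Snhg8* and *Snhg12*, which host small nucleolar RNAs (snoRNAs) in their introns. Members were chosen by name, as the rows whose Ensembl identifier carries one of these symbols in the GENCODE mouse annotation. All 8 were found among the 49585 genes of both count tables. No measured value entered the choice, but the genes were picked with earlier results of these data known.

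The study asked how AMP-activated protein kinase (AMPK), an energy-sensing kinase, and its phosphorylation of the DNA demethylase TET2 bear on muscle differentiation. The first table compared unedited (WT) with AMPK-KO cells at day 0 of differentiation (d0, labelled myoblasts) and at day 8 (d8, labelled myotubes in both genotypes), with 2 libraries in each of 4 groups. AMPK-KO cells carry CRISPR/Cas9 knockouts of both catalytic subunit genes, *Prkaa1* and *Prkaa2*. The second table compared TET2-WT with TET2-S97E cells at d0, with 2 clones of each genotype and 2 libraries of each clone. Both TET2 genotypes lack AMPK and carry a FLAG-BirA and EGFP knock-in at the start of the endogenous *Tet2* gene. In TET2-S97E the serine at position 97 is replaced by glutamate, a mimic of the phosphorylated residue. The labels do not assign the AMPK-KO libraries to knockout lines, do not say whether replicates came from separate cultures, and give each TET2 genotype only 2 clones. The p-values therefore measure the spread between these libraries, and part of that spread may be technical.

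As background, *Malat1* is retained in nuclear speckles, which store splicing factors. The long form of *Neat1* is the scaffold of paraspeckles, and both RNAs have their 3' ends cut by RNase P rather than by the usual polyadenylation machinery. *Miat* is another nuclear RNA that binds splicing factors. The snoRNA hosts are spliced RNAs whose introns release snoRNAs that guide modification or cleavage of ribosomal RNA. Their spliced exons code for no known stable protein, and many of these hosts start with a run of pyrimidines (5' TOP), as ribosomal protein messages do. Such transcripts are translated when growth signals are high, and those with short open reading frames are then broken down by nonsense-mediated decay.

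The members lie on 5 chromosomes of the GRCm38 genome, with positions and exon lengths from GENCODE M21. *Malat1* (ENSMUSG00000092341.2) spans chr19:5795690-5802672 on the minus strand, with 6983 exon bases. *Neat1* (ENSMUSG00000092274.2) lies beside it at chr19:5824708-5845478, also on the minus strand, with 20771 exon bases. *Gas5* (ENSMUSG00000053332.13) lies at chr1:161034422-161038539 on the plus strand, with 3760 exon bases once retained-intron isoforms are merged in, and holds 10 annotated snoRNA entries, of which 2 named Snord80 overlap. *Snhg1* (ENSMUSG00000108414.1) lies at chr19:8723475-8726443 on the plus strand and holds 8 snoRNA genes. *Snhg3* (ENSMUSG00000085241.7) and *Snhg12* (ENSMUSG00000086290.8) are neighbours on chromosome 4, at chr4:132348014-132353686 on the minus strand and chr4:132308623-132311024 on the plus strand, with 2 and 5 snoRNA entries, 2 of the latter overlapping as *Snora16a*. *Snhg8* (ENSMUSG00000104960.1) is the shortest, with 853 exon bases at chr3:123507552-123508404 on the minus strand and 1 snoRNA gene, *Snora24*. *Miat* (ENSMUSG00000097767.8) lies at chr5:112213228-112229395 on the minus strand and holds none.

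The first bases of the transcripts are shown because 5' TOP transcripts are defined by a pyrimidine run at their start. Each window is 30 bases of GRCm38.p6 from RefSeq, 10 before and 20 from the annotated first base, read 5′ to 3′ on the gene's strand. Capitals mark the unbroken run of C and T that covers the first base. The run can begin before the annotated first base, so its length can exceed that of the pyrimidine run in the transcript.
Malat1, chr19:5802653-5802682: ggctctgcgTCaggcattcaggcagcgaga
Gas5, first start, chr1:161034591-161034620: gcgggcccgcgagctcgacagcccggagcc
Gas5, second start, chr1:161035156-161035185: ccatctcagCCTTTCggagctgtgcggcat
Snhg1, chr19:8723477-8723506: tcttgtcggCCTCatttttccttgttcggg
Snhg3, chr4:132353667-132353696: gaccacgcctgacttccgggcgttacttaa
Snhg8, chr3:123508317-123508346: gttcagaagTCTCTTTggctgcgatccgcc
Snhg12, chr4:132308668-132308697: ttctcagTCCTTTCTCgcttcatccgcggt
Miat, chr5:112228929-112228958: tcgcagtagCCCCTTTgtgaggcgcgggag
The run was 9 bases long in *Snhg12*, 7 in *Snhg8* and *Miat*, 6 at the second start of *Gas5*, 4 in *Snhg1*, 2 in *Malat1* and 0 in *Snhg3* and at the first start of *Gas5*. A run of at least 5 bases stood at 4 of the 8 starts shown and at 10.1% of 32851 starts in the RefSeq table. The windows describe the annotated starts, not the starts used in C2C12 cells. *Neat1* is named only.

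Libraries of the first table held 17883417 to 24663079 counts and those of the second 19801909 to 37790358. Levels below are library-scaled counts (CPM, with library totals adjusted by TMM), each table on its own, so levels are compared between genes or libraries within a table. A gene with 3 or fewer counts is treated as not detected, a floor that covers counting error only. The sources do not state whether counting used strand. *Snhg3* shares 135 exon bases with *Rcc1* on the same strand and 705 with *Gm17300* on the other, so part of its reads cannot be assigned with certainty. The other overlapping features, among them *Gm26953*, which shares 2260 bases with *Miat*, had 0 counts. The 26 snoRNA entries inside the hosts, such as *Snord47* and *Snord78* in *Gas5* and *Snora73a* in *Snhg3*, had 0 counts in all 16 libraries. All but 1 of them overlap an exon of a host isoform. Of all 1507 snoRNA genes in the tables, 272 had any count. The values below therefore describe the host transcripts, not the snoRNAs.

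The edited genes were checked first. *Prkaa1*, a catalytic AMPK subunit, was at 158 and 158 CPM in the WT d0 libraries and at 79.6 and 78.0 CPM in the AMPK-KO d0 libraries. At d8 it was at 126 and 125 CPM in WT and 83.3 and 82.4 CPM in AMPK-KO. Its fitted change at d0 was −1.01 ± 0.13 (log2, SE, adjusted p = 0.0116) and its change at d8 was −0.60 ± 0.13 (adjusted p = 0.0419), by edgeR's quasi-likelihood test with Benjamini-Hochberg adjustment. Counts of *Prkaa2*, the other catalytic subunit, were 35 and 33 at d0 in WT against 4 and 9 in AMPK-KO, and 113 and 216 at d8 against 31 and 17. Its fitted change was −2.43 at d0 (adjusted p = 0.0527, edgeR) and −2.96 at d8 (adjusted p = 0.0190, edgeR). Transcript of both genes was still present in the libraries labelled AMPK-KO. The paper reported a small insertion in *Prkaa1* and deletions in *Prkaa2* by sequencing, and loss of AMPK protein by Western blot. RNA levels do not measure that loss. *Tet2* transcript was at 34.2, 22.5, 58.3 and 56.4 CPM in TET2-WT and at 12.9, 21.9, 7.87 and 22.1 CPM in TET2-S97E, in the order clone 1 replicate 1 and 2, clone 2 replicate 1 and 2, which is used throughout. The TET2-S97E libraries were all below the TET2-WT libraries, with a fitted change of −1.40 ± 0.39 and an adjusted p of 0.0621 by the same edgeR test.

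Of 10 myoblast and myotube markers, all were above 3 counts in 15 of the 16 libraries. In AMPK-KO d0 replicate 2 the myotube markers *Myh3*, with 3 counts, and *Ckm*, with 0, were not, and the myoblast markers *Myod1*, *Myf5*, *Des* and *Cdh15* had 291 counts or more. The 10 markers summed to 1832 and 2594 CPM in WT d0, 1281 and 1511 in AMPK-KO d0, 8389 and 10631 in WT d8, and 3223 and 12959 in AMPK-KO d8. The most abundant marker was *Des*, an intermediate filament of muscle, in the d0 libraries and *Acta1*, skeletal muscle actin, in 3 of the 4 d8 libraries. AMPK-KO d8 replicate 1 stood apart with a low sum. Of the 10 markers, edgeR called 3 lower in AMPK-KO at d0 and 0 at d8 (4 at an unadjusted p under 0.05, and 2 called lower by DESeq2), and 6 higher from d0 to d8 in WT and 7 in AMPK-KO. Of all genes, edgeR called 2.83% lower in AMPK-KO at d0 and 3.98% at d8 (22.8% at an unadjusted p under 0.05). From d0 to d8 it called 5.78% of all genes higher in WT and 4.81% in AMPK-KO. In the second table the sums were 1035, 1324, 1080 and 1474 CPM in TET2-WT and 8691, 4307, 2859 and 1292 CPM in TET2-S97E. *Acta1* had 59, 148, 284 and 3126 counts in TET2-WT and 65680, 25800, 19648 and 5547 in TET2-S97E, and 6 of the 10 markers were called higher in TET2-S97E by edgeR, beside 3.71% of all genes. With the counts of each clone summed edgeR called 0 of all genes, so these calls were lost. The sum in TET2-S97E clone 2 replicate 2 nevertheless lay within the TET2-WT range. Bulk RNA cannot tell a smaller share of cells of a type from less RNA per cell.

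Markers of other cell types were low with 1 exception. The 5 adipocyte markers were at or under 3 counts in every library of the first table and never summed to more than 1.66 CPM in any library. Macrophage markers summed to 1.59 to 8.31 CPM and endothelial markers to 1.21 to 13.0 CPM, led by *Cd68* or *Lyz2* and by *Tek* or *Cdh5*. Between genotypes and days the tests called of these lists only 1 endothelial marker, lower in TET2-S97E, by edgeR and by DESeq2. Its edgeR call was lost with counts summed per clone, where 0 of all genes were called. Between the clones of TET2-S97E both tools called 1 macrophage, 1 endothelial and 1 adipocyte marker, and between those of TET2-WT DESeq2 called 1 macrophage marker. Of the neuron markers *Rbfox3*, *Snap25*, *Syt1*, *Elavl3* and *Stmn2*, *Stmn2*, a microtubule regulator, stood at 2388 and 2772 counts in WT d0 but at 14 and 50 in AMPK-KO d0. The neuron list summed to 115 and 150.4 CPM in WT d0 and 0.837 and 2.34 CPM in AMPK-KO d0, with at least 3 of its 5 markers at or under 3 counts in each of these libraries. At d8 the *Stmn2* counts were 395 and 353 for WT against 9 and 51 for AMPK-KO, and edgeR and DESeq2 called the 1 neuron marker tested in AMPK-KO against WT on both days and from d0 to d8 in WT. *Stmn2* was at 237, 419, 238 and 167 counts in TET2-WT and at 6, 6, 767 and 1075 in TET2-S97E, a difference between the TET2-S97E clones that both tools called. What part the *Stmn2* differences have in the values of the 8 genes was not tested.

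Per length of exon, *Malat1* had the highest mean of the 8 genes in every group but AMPK-KO d0, though in WT d0 and TET2-WT this rested on 1 library. Length-scaled levels (TPM, mean ± SD) in WT d0 were 107.7 ± 74.9 for *Malat1*, 69.0 ± 14.4 for *Snhg8*, 32.8 ± 6.02 for *Gas5*, 23.0 ± 28.9 for *Neat1*, 21.2 ± 0.567 for *Snhg1*, 13.2 ± 6.47 for *Snhg12*, 1.35 ± 1.37 for *Snhg3* and 0.0284 ± 0.0402 for *Miat* (n = 2). The *Malat1* libraries, at 161 and 54.8 TPM, both lay above those of *Gas5* but not above those of *Snhg8*, and *Neat1*, at 43.4 and 2.52 TPM, could not be ordered against *Gas5*. Without WT d0 replicate 1, *Snhg8* at 79.2 TPM came before *Malat1* at 54.8. In AMPK-KO d0, *Snhg8* came first at 142 ± 9.75 TPM, with *Malat1* at 120.1 ± 32.3 TPM, a gap smaller than the *Malat1* spread. At d8 *Malat1* stood clear of the rest, at 225 ± 22.9 TPM in WT and 201 ± 40.3 TPM in AMPK-KO, against 53.9 ± 0.617 and 64.6 ± 5.27 TPM for *Snhg8*. In TET2-WT the order was *Malat1* at 212 ± 242 TPM, *Neat1* at 147 ± 166, *Snhg8* at 96.4 ± 24.4, *Gas5* at 77.2 ± 8.51, *Snhg1* at 30.3 ± 4.78 and *Snhg12* at 28.7 ± 5.46 (n = 4). Without TET2-WT clone 2 replicate 2 the means were 107.0 TPM for *Snhg8*, 92.9 for *Malat1*, 75.9 for *Gas5* and 64.4 for *Neat1*. The place of *Malat1* ahead of *Snhg8*, and of *Neat1* ahead of *Snhg8* and *Gas5*, thus rested on 1 library. In TET2-S97E *Gas5* at 51.2 ± 4.89 TPM lay above *Snhg8* at 40.9 ± 8.55 TPM, the reverse of their order in TET2-WT, and in both genotypes the gap was close to the SDs. *Snhg1* and *Snhg12* did not differ beyond their spread in TET2-WT.

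**Figure D1:**
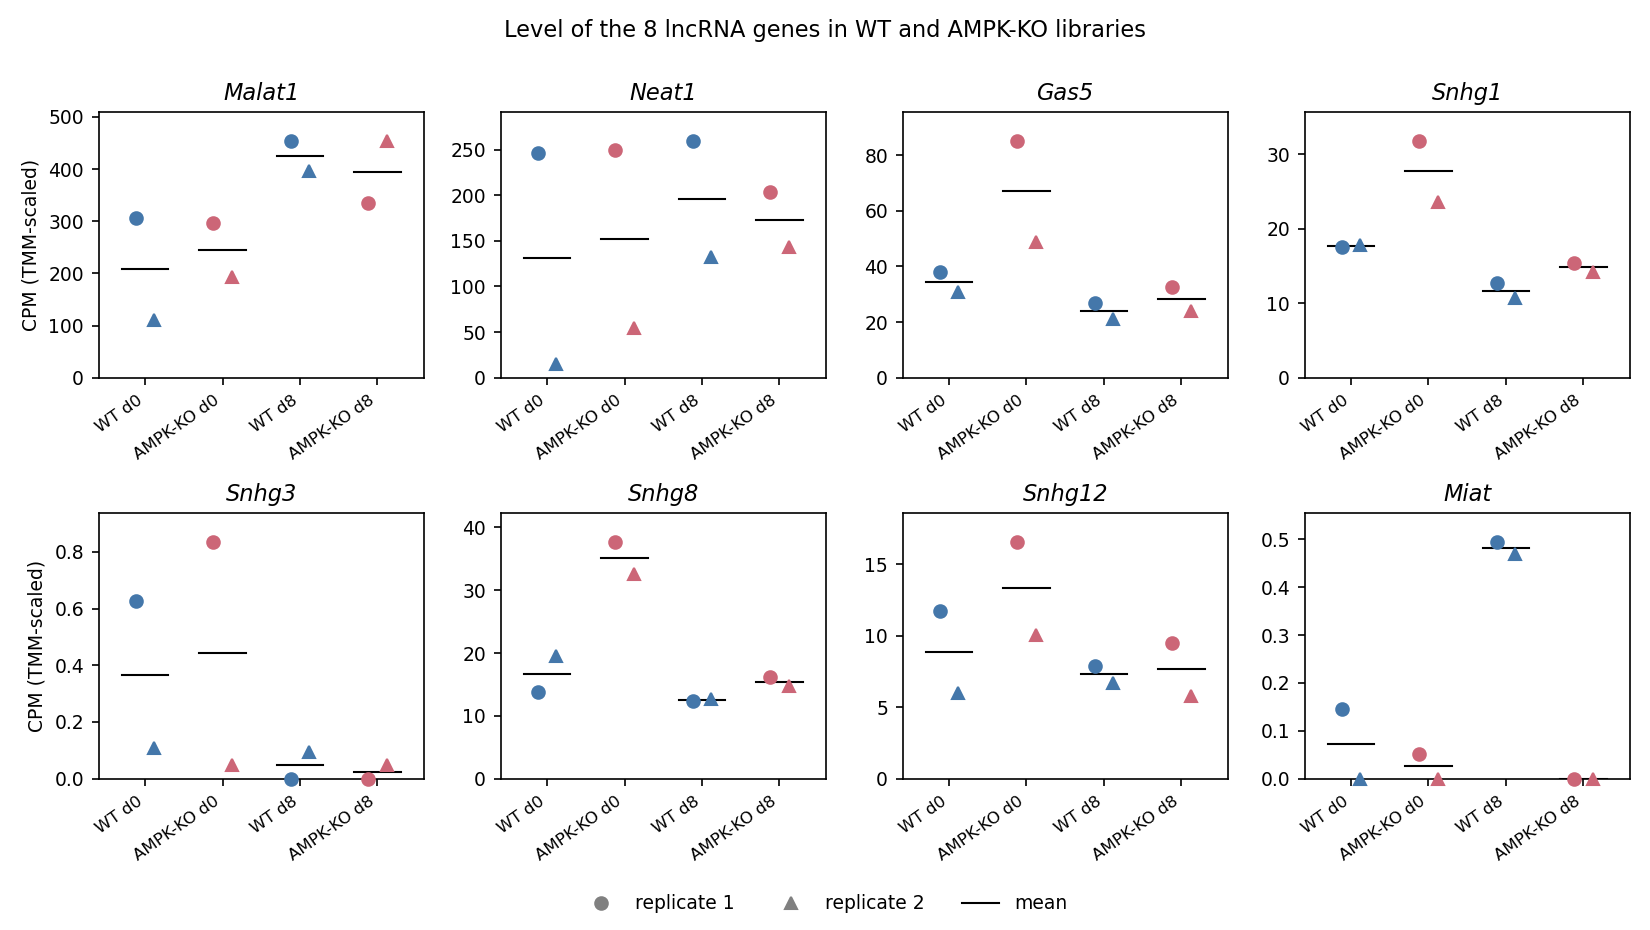
CPM of the 8 genes in the 8 libraries of WT and AMPK-KO cells, with a linear axis for each gene, circles for replicate 1, triangles for replicate 2 and a line at the mean of the 2 libraries. The points sit highest in the 2 AMPK-KO d0 libraries for *Gas5*, *Snhg1* and *Snhg8*, while WT d0 replicate 2 sits far below the other libraries for *Neat1*.

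The first question was whether loss of AMPK moved these RNAs. In myoblasts at d0, 3 snoRNA hosts were higher in both AMPK-KO libraries than in both WT libraries, as were 23.6% of all genes tested. No member was called by edgeR in the filtered model of all libraries without a replicate block. With the replicate number as a block 1 was called, *Gas5*, beside 5.16% of all genes. Of the 7 members with enough counts to be tested (all but *Miat*), 0 were called by edgeR's quasi-likelihood test beside 3.52% of the 14329 genes tested, and 1, *Snhg8*, was called by DESeq2 beside 9.72%. At an unadjusted p under 0.05, edgeR counted 3 of the 7 members and 20.9% of all genes. The median log2 fold change was 0.58 over the tested members and −0.00 over all genes tested.

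*Snhg8*, the host of *Snora24*, was at 13.7 and 19.5 CPM in WT d0 and at 37.8 and 32.6 CPM in AMPK-KO d0. The 2 groups did not overlap. The fitted change was 1.08 ± 0.23 (log2, SE) with adjusted p = 0.0515 by edgeR, just short of a call at 0.05, and 0.0504 when the replicate number was a block in the model. The DESeq2 Wald test gave 0.00205, and edgeR without WT d0 replicate 2 gave 1.36 with adjusted p = 0.0439. Without any 1 of the other 3 libraries of these groups the change was 0.84 to 1.16 with adjusted p from 0.138 to 0.271 by edgeR. *Gas5*, the host of C/D box snoRNAs and named for its rise in growth-arrested cells, was at 38.1 and 31.0 CPM in WT d0 and 85.3 and 48.7 CPM in AMPK-KO d0. The AMPK-KO libraries were both higher, and also further apart than the WT libraries. The fitted change was 0.95 ± 0.31 with adjusted p = 0.143 by edgeR. With no filter on low counts edgeR called *Gas5* and *Snhg8*, and many more of all genes than with the filter. How many genes that setting tested is not given here, so no share of all genes stands beside its calls. No conclusion is drawn from them. With the replicate block the change of *Gas5* was 0.91 with adjusted p = 0.0414, the only member called in that model, beside 5.16% of all genes. Without AMPK-KO d0 replicate 1 it was 0.49 with adjusted p = 0.566 by edgeR, and without any 1 of the other 3 libraries it was 0.82 to 1.28 and not called. *Snhg1*, the host of *Snord22* and other C/D box snoRNAs, was at 17.5 and 17.8 CPM in WT d0 and 31.9 and 23.5 CPM in AMPK-KO d0, again without overlap. Its fitted change was 0.65 ± 0.22 with an adjusted p of 0.161 by edgeR. *Snhg12* was at 11.7 and 6.01 CPM in WT d0 and 16.6 and 10.05 CPM in AMPK-KO d0, and these groups overlapped (0.58 ± 0.43). AMPK-KO was the higher within each replicate number. With the replicate block the change of *Snhg12* was 0.61 with adjusted p = 0.201 by edgeR.

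At d8 the fitted differences between the genotypes were smaller than at d0 for each of these 4 hosts (the interaction below tests this), and again 0 of 7 members were called, beside 5.35% of all genes by edgeR and 11.6% by DESeq2, with 0 members and 22.8% of all genes at an unadjusted p under 0.05. *Gas5* was at 26.9 and 21.2 CPM in WT d8 and 32.7 and 24.1 CPM in AMPK-KO d8, which overlap. AMPK-KO was the higher within each replicate number, and with the replicate block the change was 0.23 with adjusted p = 0.430 by edgeR. *Snhg1* was at 12.8 and 10.6 CPM in WT d8 and 15.4 and 14.2 CPM in AMPK-KO d8, and *Snhg8* was at 12.3 and 12.6 CPM against 16.2 and 14.7 CPM. Both AMPK-KO libraries were above both WT libraries for these latter genes, as for 30% of all genes, with fitted changes of 0.34 ± 0.22 for *Snhg1* and 0.31 ± 0.23 for *Snhg8*. *Snhg12* was at 7.87 and 6.70 CPM in WT d8 and 9.50 and 5.78 CPM in AMPK-KO d8, with 1 library above and 1 below both WT libraries. The median over the tested members was 0.07, against 0.04 over all genes.

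In AMPK-KO cells 3 snoRNA hosts fell from d0 to d8. *Gas5* fell by 1.24 ± 0.31 on the log2 scale, to 0.425 of its d0 level, with adjusted p = 0.0499 by edgeR. *Snhg1* fell by 0.90 ± 0.22, to 0.535 of its d0 level (adjusted p = 0.0484, edgeR), and *Snhg8* fell by 1.19 ± 0.23, to 0.439 of its d0 level (adjusted p = 0.0281, edgeR). These 3 were the members called lower, of 7 tested, where 4.95% of all genes were called lower. DESeq2 also called 3 members lower, beside 8.3% of all genes. For each of the 3 called by edgeR both d8 libraries lay below both d0 libraries, as for 28.9% of all genes. *Snhg12* also lay lower in both d8 libraries, with a fitted change of −0.80 ± 0.43 and an adjusted p of 0.268 by edgeR. The calls stood close to the threshold. With the replicate number as a block all 3 stayed called. Their adjusted p by edgeR was then 0.0222 for *Gas5*, 0.0355 for *Snhg1* and 0.0285 for *Snhg8*. With the DESeq2 size factors in edgeR only *Snhg8* was called, and without any 1 of the 4 AMPK-KO libraries none was, with adjusted p by edgeR from 0.0652 to 0.250. All genes called fell from 1398 to 0 without AMPK-KO d0 replicate 1, to 1 without AMPK-KO d0 replicate 2, to 392 without AMPK-KO d8 replicate 2 and to 923 without AMPK-KO d8 replicate 1.

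In WT cells the same hosts were lower at d8 by less, and 0 of 7 members were called, beside 12.4% of all genes by edgeR and 19.3% by DESeq2, with 1 member and 31.1% of all genes at an unadjusted p under 0.05. The fitted changes from d0 to d8 were −0.52 ± 0.31 for *Gas5*, −0.60 ± 0.22 for *Snhg1*, −0.41 ± 0.23 for *Snhg8* and −0.28 ± 0.43 for *Snhg12*. With 1 library left out the change of *Snhg8* ran from −0.66 without WT d0 replicate 1 to −0.13 without WT d0 replicate 2, and that of *Gas5* from −0.73 to −0.38. The d8 libraries lay below the d0 libraries without overlap for *Gas5*, *Snhg1* and *Snhg8*, as for 30.2% of all genes. The difference between the genotypes in this change was tested as an interaction. It called 0 of 7 members and 0% of all genes by edgeR and 0 members and 0.419% of all genes by DESeq2, with 1 member, *Snhg8*, and 5.09% of all genes at an unadjusted p under 0.05. The interaction of *Snhg8* was −0.77 ± 0.32 (log2, SE) with adjusted p = 0.969 by edgeR, and that of *Gas5* was −0.71 ± 0.43 with an adjusted p of 1.00. Without AMPK-KO d0 replicate 1 the interaction of *Gas5* was −0.28, and that of *Snhg8* ran from −1.08 to −0.51 with 1 library left out. A larger fall in AMPK-KO than in WT cells was thus not detectable at this number of libraries. Median changes from d0 to d8 were −0.41 in WT and −0.90 in AMPK-KO over the tested members, against 0.01 and 0.02 over all genes.

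**Figure D2:**
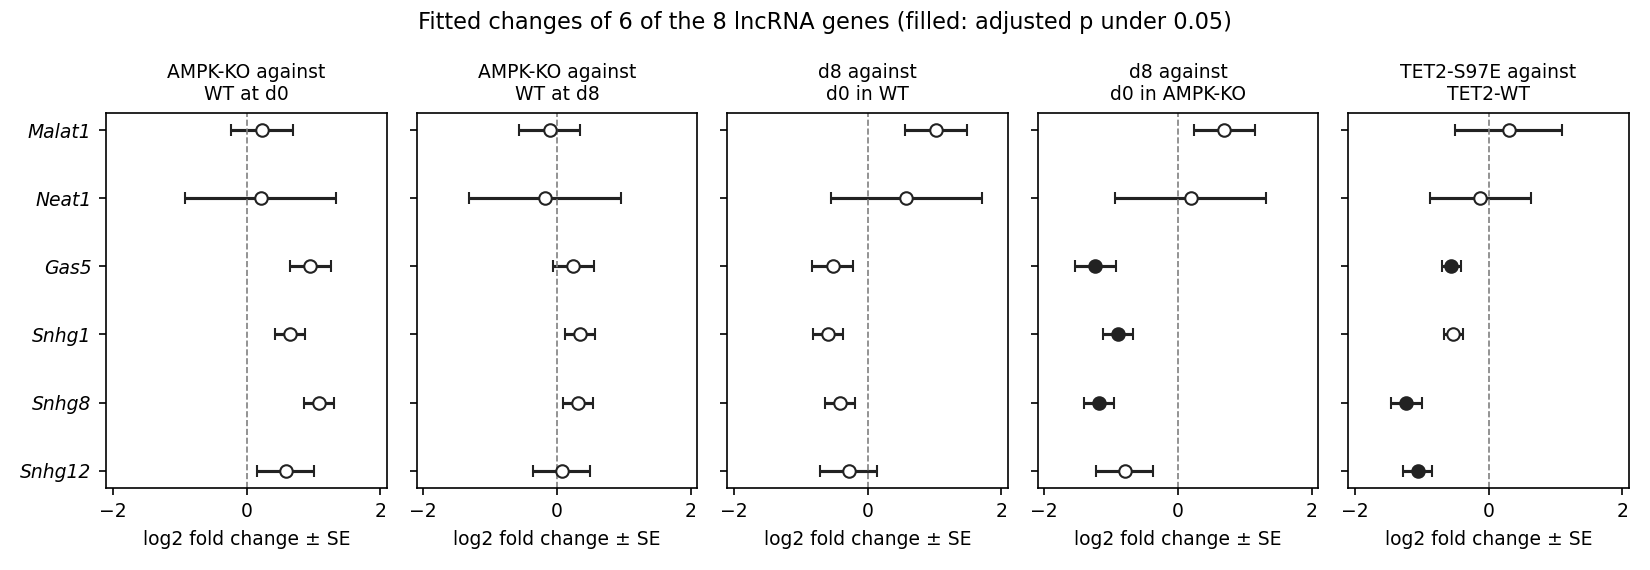
Fitted log2 fold changes (points) with their standard errors (bars) for 6 of the genes in AMPK-KO against WT on each day, d8 against d0 in each genotype and TET2-S97E against TET2-WT, with filled points where the adjusted p was under 0.05. The hosts lie right of 0 for AMPK-KO at d0 and left of 0 for d8 in AMPK-KO and for TET2-S97E, while the bars of *Neat1* cross 0 in all 5 panels.

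*Malat1* and *Neat1* varied widely between libraries of the same group, and neither was called by edgeR in any comparison of this table in the filtered model of all 8 libraries. *Malat1* was at 307 and 110.4 CPM in WT d0, 297 and 192 in AMPK-KO d0, 454 and 396 in WT d8, and 335 and 455 in AMPK-KO d8. The WT d0 libraries differed 2.78-fold, and the AMPK-KO d0 libraries lay between them. The fitted change between genotypes was 0.23 ± 0.46 at d0 and −0.11 ± 0.46 at d8. From d0 to d8 both d8 libraries were above both d0 libraries in each genotype, as for 31.3% of all genes in WT and 30.2% in AMPK-KO, with fitted changes of 1.03 ± 0.46 in WT and 0.69 ± 0.46 in AMPK-KO and adjusted p = 0.182 and 0.366 by edgeR. With no filter on low counts *Malat1* was called in both, with adjusted p = 0.000372 in WT and 0.0463 in AMPK-KO by edgeR. That setting also called many more of all genes, as given below, and no conclusion is drawn from its calls. The change in WT rested on the WT d0 libraries, at 1.93 with adjusted p = 0.0222 without replicate 1 and 0.48 with adjusted p = 0.469 without replicate 2, by edgeR.

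*Neat1* was at 247 and 15.1 CPM in WT d0, a 16.3-fold difference between libraries of the same label, from 5118 and 279 counts. It was at 249 and 54.5 CPM in AMPK-KO d0, 260 and 132 CPM in WT d8, and 203 and 143 CPM in AMPK-KO d8. Replicate 2 was the lower library in all 4 groups, by 4.57-fold in AMPK-KO d0, 1.96-fold in WT d8 and 1.42-fold in AMPK-KO d8. Every pair of groups overlapped for *Neat1*. Its fitted changes lay between −0.18 and 0.58 with a standard error of 1.13 in each of these comparisons, so a change of about that size could not be told from the spread. With the replicate number as a block they were 0.56 at d0, −0.04 at d8, 1.28 from d0 to d8 in WT and 0.69 in AMPK-KO, and 0 were called. Mitochondrial genes, which also varied, took 1.36 and 0.568% of counts in WT d0, 1.16 and 0.666% in AMPK-KO d0, 1.43 and 0.970% in WT d8 and 0.977 and 0.683% in AMPK-KO d8, with replicate 2 again the lower in each group. Their part in the *Neat1* values was not tested.

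The remaining members were near the limit of detection. *Miat* had 3 and 0 counts at d0 in WT, 1 and 0 at d0 in AMPK-KO, 9 and 10 in WT d8 and 0 and 0 in AMPK-KO d8. It was thus above 3 counts in WT d8 alone among the groups of this table, at least 3.60-fold over AMPK-KO d8 and at least 3.14-fold over WT d0 with those groups set at 3 counts per library. *Miat* was too low for the filter and was not tested in the filtered model. With no filter on low counts edgeR gave *Miat* an adjusted p of 0.0296 in AMPK-KO against WT at d8. That setting called many more of all genes, and the test compares with 0 counts in both AMPK-KO d8 libraries. No conclusion is drawn from it. *Snhg3*, the host of *Snora73a* and *Snora73b*, had 13 and 2 counts at d0 in WT, 16 and 1 at d0 in AMPK-KO, 0 and 2 in WT d8 and 0 and 1 in AMPK-KO d8. The counts at d0 came almost wholly from replicate 1, and no comparison of *Snhg3* was called by edgeR. In the TET2 table *Snhg3* had 10, 7, 7 and 13 counts in TET2-WT and 7, 7, 3 and 8 in TET2-S97E, and *Miat* had 0, 0, 0 and 2 against 0, 0, 0 and 1. Neither passed the filter of the comparison of TET2 genotypes.

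**Figure D3:**
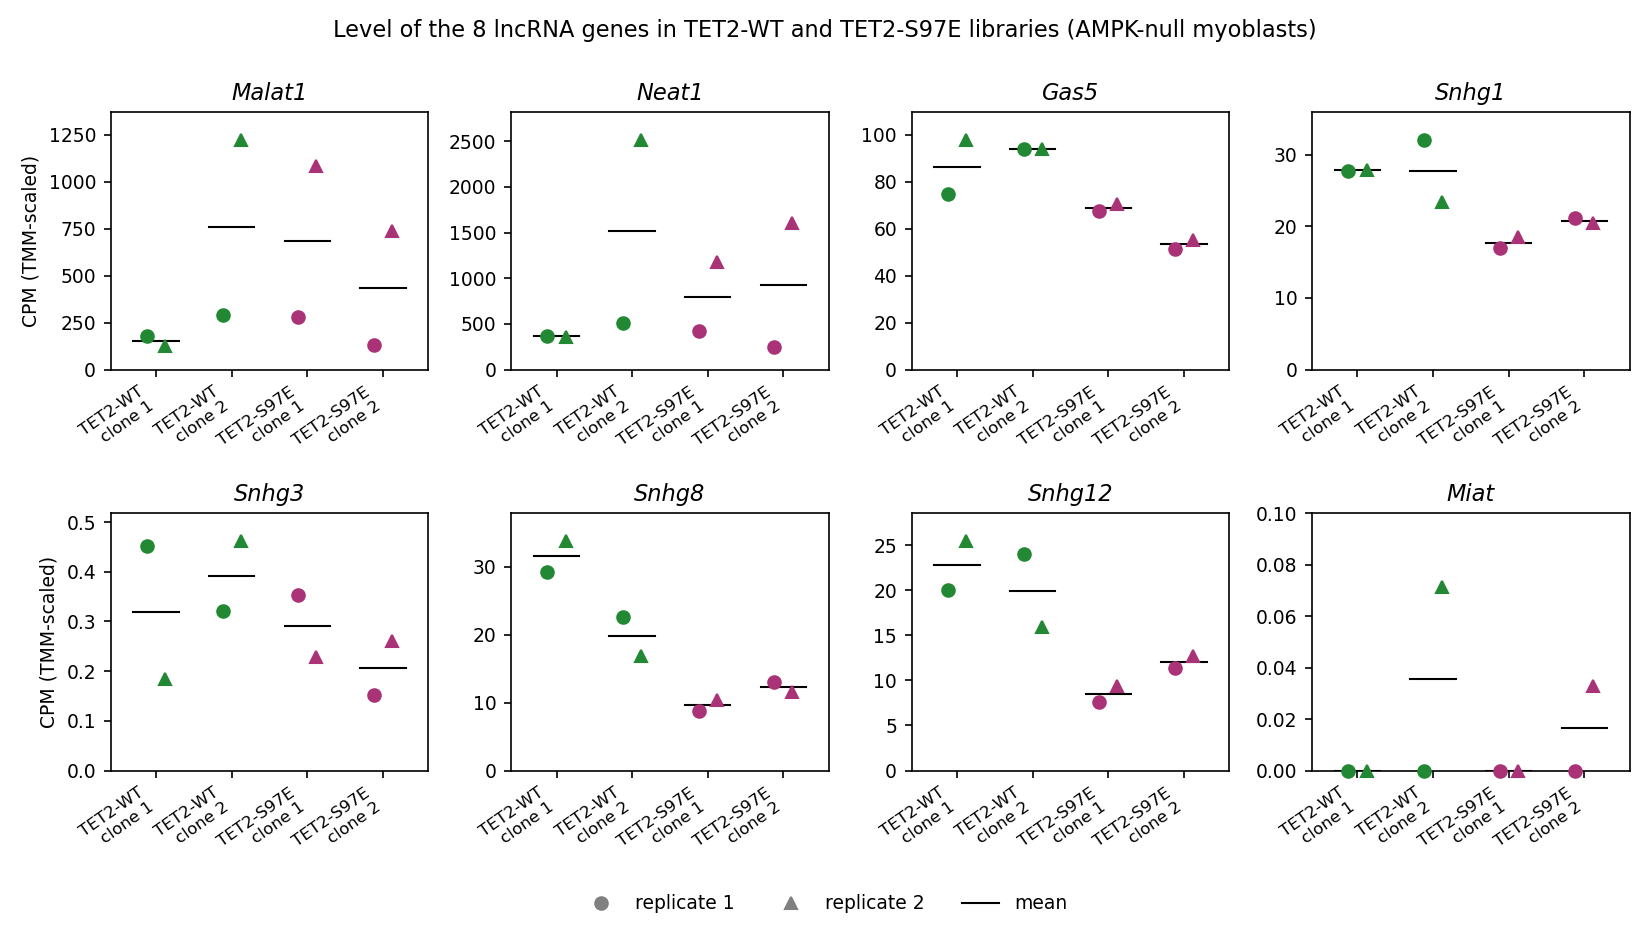
CPM of the 8 genes in the 8 TET2 libraries by genotype and clone, with a linear axis for each gene, circles for replicate 1, triangles for replicate 2 and a line at the mean of the 2 libraries of a clone. *Snhg8* and *Snhg12* are below the TET2-WT range in all 4 TET2-S97E libraries, and replicate 2 is far above replicate 1 for *Malat1* and *Neat1* in 3 of the 4 clones.

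The second question was whether the phosphomimetic TET2 changed these RNAs in cells without AMPK. All 4 well-expressed hosts were lower in each TET2-S97E library than in each TET2-WT library, as were 7.99% of all genes tested. Of 6 members tested, 3 were called lower by edgeR and 4 by DESeq2, which added *Snhg1* (adjusted p = 0.0107), where edgeR called 3.28% and DESeq2 6.28% of 13433 genes lower. The median log2 fold change was −0.54 over the tested members and 0.01 over all genes.

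*Snhg8* was at 29.2, 33.8, 22.7 and 16.9 CPM in TET2-WT and at 8.77, 10.4, 13.0 and 11.6 CPM in TET2-S97E. The lowest TET2-WT library was above the highest TET2-S97E library, and the means were 25.7 ± 7.42 and 10.9 ± 1.77 CPM (SD, n = 4). Its fitted change was −1.23 ± 0.23 with an adjusted p of 0.0173 by edgeR. *Snhg12*, the host of *Snora16a*, *Snora44*, *Snora61* and *Snord99*, was at 20.1, 25.5, 24.0 and 15.9 CPM in TET2-WT and 7.56, 9.36, 11.3 and 12.8 CPM in TET2-S97E. The groups did not overlap, and the fitted change was −1.06 ± 0.21 with an adjusted p of 0.0219 by edgeR. *Gas5* was at 74.8, 97.8, 93.8 and 93.7 CPM in TET2-WT and 67.4, 70.4, 51.4 and 55.1 CPM in TET2-S97E. Its groups were closer, with 74.8 CPM as the lowest TET2-WT and 70.4 CPM as the highest TET2-S97E value, and the change was −0.56 ± 0.14 with adjusted p = 0.0466 by edgeR. *Snhg1* was at 27.8, 28.0, 32.1 and 23.4 CPM in TET2-WT and 17.03, 18.5, 21.1 and 20.5 CPM in TET2-S97E, again without overlap. Its change was −0.53 ± 0.14 with an adjusted p of 0.0542 by edgeR, and it was not called.

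These calls treat the 4 libraries of a genotype as independent, although each pair shares a clone. With the counts summed per clone, so that 2 clones faced 2, the fitted changes were −1.26 ± 0.32 for *Snhg8*, −1.07 ± 0.27 for *Snhg12*, −0.60 ± 0.21 for *Gas5* and −0.54 ± 0.20 for *Snhg1*. None of the members and 0% of all genes were then called lower by edgeR, with 4 members and 10.4% of all genes at an unadjusted p under 0.05 and adjusted p of these members from 0.336 to 0.444. A limma-voom fit that took clone as random called 0 members, with an adjusted p of 0.0672 for *Snhg8* and 0.0923 for *Snhg12*. Leaving out TET2-WT clone 1 replicate 1 ended all 3 calls. Without TET2-WT clone 1 replicate 2, TET2-WT clone 2 replicate 1 or TET2-S97E clone 1 replicate 1 only *Snhg8* was called. *Gas5* was called without 1 library only where that was TET2-S97E clone 1 replicate 2, and not with a replicate block (adjusted p = 0.0545, edgeR). The muscle marker sums and the *Tet2* transcript given above also differed between the genotypes. *Tet2* was not called, however, and the marker sum of TET2-S97E clone 2 replicate 2 lay within the TET2-WT range. Mitochondrial genes took 1.14, 1.00, 1.38 and 2.14% of counts in TET2-WT and 2.29, 2.12, 2.03 and 2.09% in TET2-S97E. The part of these differences in the host values was not tested, nor can genotype be told from clone with so few clones.

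Between clones of the same genotype the fitted differences of *Gas5*, *Snhg1*, *Snhg8* and *Snhg12* were each smaller than between genotypes. In TET2-WT the clone 2 minus clone 1 change was −0.68 ± 0.21 for *Snhg8*, 0.11 for *Gas5*, −0.01 for *Snhg1* and −0.20 for *Snhg12*, and in TET2-S97E it was 0.35 for *Snhg8*, −0.37 for *Gas5*, 0.23 for *Snhg1* and 0.51 ± 0.25 for *Snhg12*. By edgeR and by DESeq2, 0 of 7 members were called in each of these comparisons, beside 0.858% and 6.18% of all genes in TET2-WT and 6.17% and 9.56% in TET2-S97E. At an unadjusted p under 0.05, edgeR counted 3 members and 20.5% of all genes in TET2-WT, and 0 members and 19.5% in TET2-S97E.

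*Malat1* and *Neat1* were again dominated by the spread between libraries. *Malat1* was at 178, 124, 292 and 1223 CPM in TET2-WT and 282, 1086, 131 and 738 CPM in TET2-S97E. *Neat1* was at 367, 357, 513 and 2517 CPM in TET2-WT and 419, 1177, 244 and 1605 CPM in TET2-S97E. The ranges of the genotypes overlapped for both. The fitted change for TET2-S97E was 0.30 ± 0.80 for *Malat1* and −0.12 ± 0.75 for *Neat1*, and for clone 2 against clone 1 of TET2-WT it was 2.32 ± 0.90 and 2.06 ± 0.90, with adjusted p = 0.202 and 0.240 by edgeR. With no filter on low counts edgeR called both clone differences of TET2-WT, and many more of all genes, and no conclusion is drawn from that setting. Without TET2-WT clone 2 replicate 2 these clone differences were 0.95 and 0.50, with adjusted p = 0.750 and 0.870 by edgeR.

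The high libraries were the replicate 2 libraries of TET2-WT clone 2 and of both TET2-S97E clones. There replicate 2 exceeded replicate 1 by 4.19-fold, 3.86-fold and 5.62-fold for *Malat1* and by 4.90-fold, 2.81-fold and 6.57-fold for *Neat1*. In TET2-WT clone 1 the ratios were 0.700 and 0.973. The ratios of replicate 2 to replicate 1 lay between 0.66 and 1.31 for *Gas5*, *Snhg1*, *Snhg8* and *Snhg12* over the 4 clones. Of 13433 genes, 213 (1.59%) were more than 2-fold higher in replicate 2 in all 3 of these clones, and of 9337 genes with a mean of at least 10 CPM only 16 were. By the median of the 3 ratios, *Neat1* came first among those 16, at 4.90-fold, and *Malat1* was at 4.19-fold. The 3 clones were chosen by the values of *Malat1* and *Neat1*, so the places of these genes carry no test. The others included *Dnm3os* at 3.67-fold, *Rsrp1* at 2.78-fold, the small nuclear RNA *Rn7sk* at 2.63-fold and *Xist* at 2.36-fold. *Malat1* and *Neat1* together took 0.0376 to 0.384% of the counts of a TET2 library and 0.0123 to 0.0726% in the first table. The labels do not say how replicate 2 libraries differed from replicate 1 libraries in handling.

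**Figure D4:**
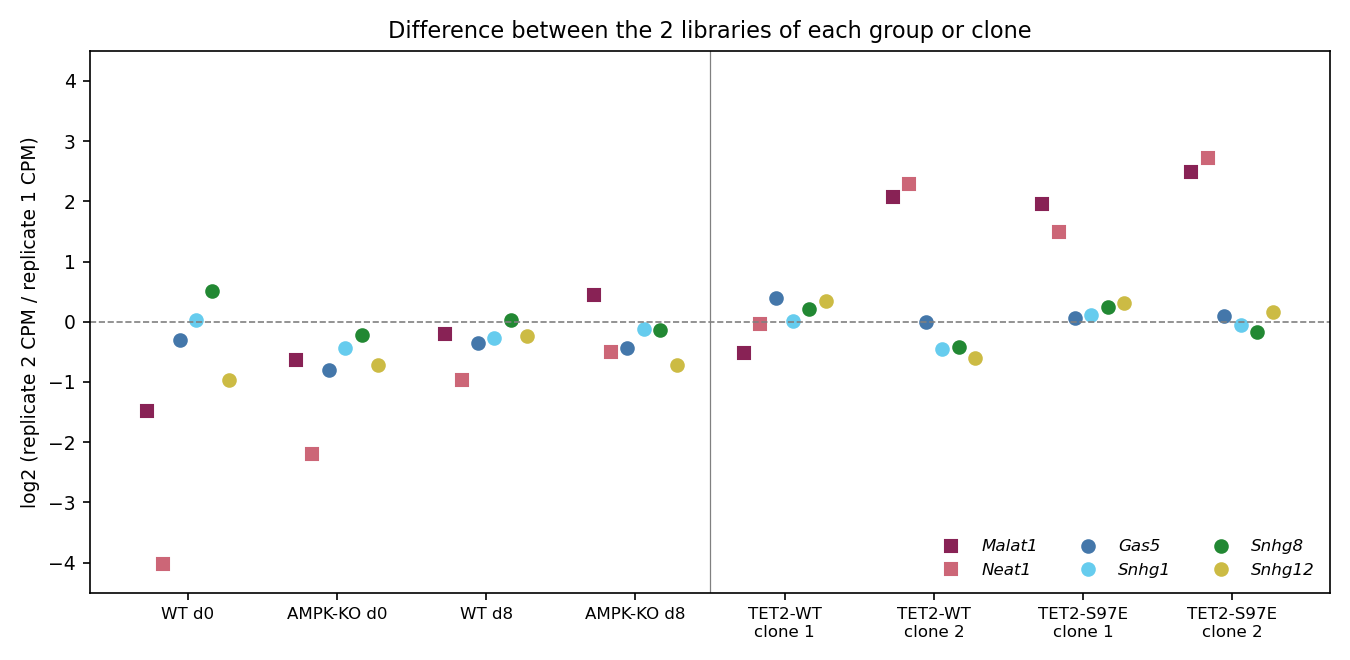
The log2 ratio of replicate 2 to replicate 1 CPM for 6 of the genes in each of the 4 groups of the first table (left) and the 4 clones of the second (right), with squares for *Malat1* and *Neat1* and circles for the snoRNA hosts. The squares run from far below 0 in WT d0 to well above 0 in 3 TET2 clones, and the circles stay within 1 log2 unit of 0.

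Genes whose profile over the 16 libraries lay nearest to each member were found by the root mean square difference of log2 CPM, centred within each table, among 9006 genes with a mean of at least 10 CPM in each table. For *Snhg1* these were *D10Wsu102e* at 0.130, *Sf3b4* at 0.143 and *Larp7* at 0.153, where the median over all genes was 0.476. For *Gas5* they were *Snhg6*, another snoRNA host, at 0.180, then *Gar1*, a snoRNP protein, at 0.203 and *Nob1* at 0.232, where the median was 0.557. *Snhg8* lay nearest to *Krtcap2* at 0.227, *2410006H16Rik* at 0.244 and *Cdkn2aipnl* at 0.262. *Snhg12* lay nearest to *2410006H16Rik* at 0.252, *Slc50a1* at 0.264 and *Zfas1*, another snoRNA host, at 0.311. Among the members the closest pair was *Gas5* and *Snhg1* at 0.233, and the 4 hosts lay 0.233 to 0.419 from one another.

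*Malat1* and *Neat1* lay 1.15 to 1.53 from the hosts and 0.650 from each other. The median over all genes was 1.05 for *Malat1* and 1.29 for *Neat1*, so the hosts were no nearer to them than most genes. The nearest genes to *Malat1* were *Rsrp1* at 0.489, *Gabbr1* at 0.497 and the nuclear lncRNA *Firre* at 0.522, and those to *Neat1* were *Dnm3os* at 0.457, *Rsrp1* at 0.586 and *Leng8* at 0.747. *Snhg3* had no near gene, the closest being *Wdr76* at 0.776. These distances describe the 16 libraries, which share depth and replicate effects, and carry no test.

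Of 16 other snoRNA host lncRNAs listed, 13 were found and 10 were tested in the first table and 11 in the second. Against WT, AMPK-KO cells had 0 called at d0 and 0 at d8 by edgeR and by DESeq2, and 2 and 0 at an unadjusted p under 0.05 by edgeR. Of all genes, 20.9% at d0 and 22.8% at d8 were under that unadjusted p. The median change was 0.55 at d0 and 0.14 at d8. From d0 to d8, *Zfas1* was lower in WT (−0.72, adjusted p = 0.0496 by edgeR), and *Zfas1* (−0.93, adjusted p = 0.0310) and *Snhg15* (−1.60, adjusted p = 0.0227) were lower in AMPK-KO. Of all genes, edgeR called 6.58% lower in WT and 4.95% in AMPK-KO. In TET2-S97E, 3 were called lower by edgeR and none higher, beside 3.28% of all genes called lower, with a median of −0.48. With counts summed per clone edgeR called 0% of all genes lower, so these 3 calls were lost. *Zfas1*, the host of several C/D box snoRNAs, was at 81.2, 109, 92.0 and 63.4 CPM in TET2-WT and 40.2, 51.7, 34.5 and 41.1 CPM in TET2-S97E. These groups did not overlap, and the change was −1.04 ± 0.19 with an adjusted p of 0.0143. The other called hosts were *Epb41l4aos* (−1.11, adjusted p = 0.0186) and *Snhg16* (−0.84, adjusted p = 0.0258).

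**Figure D5:**
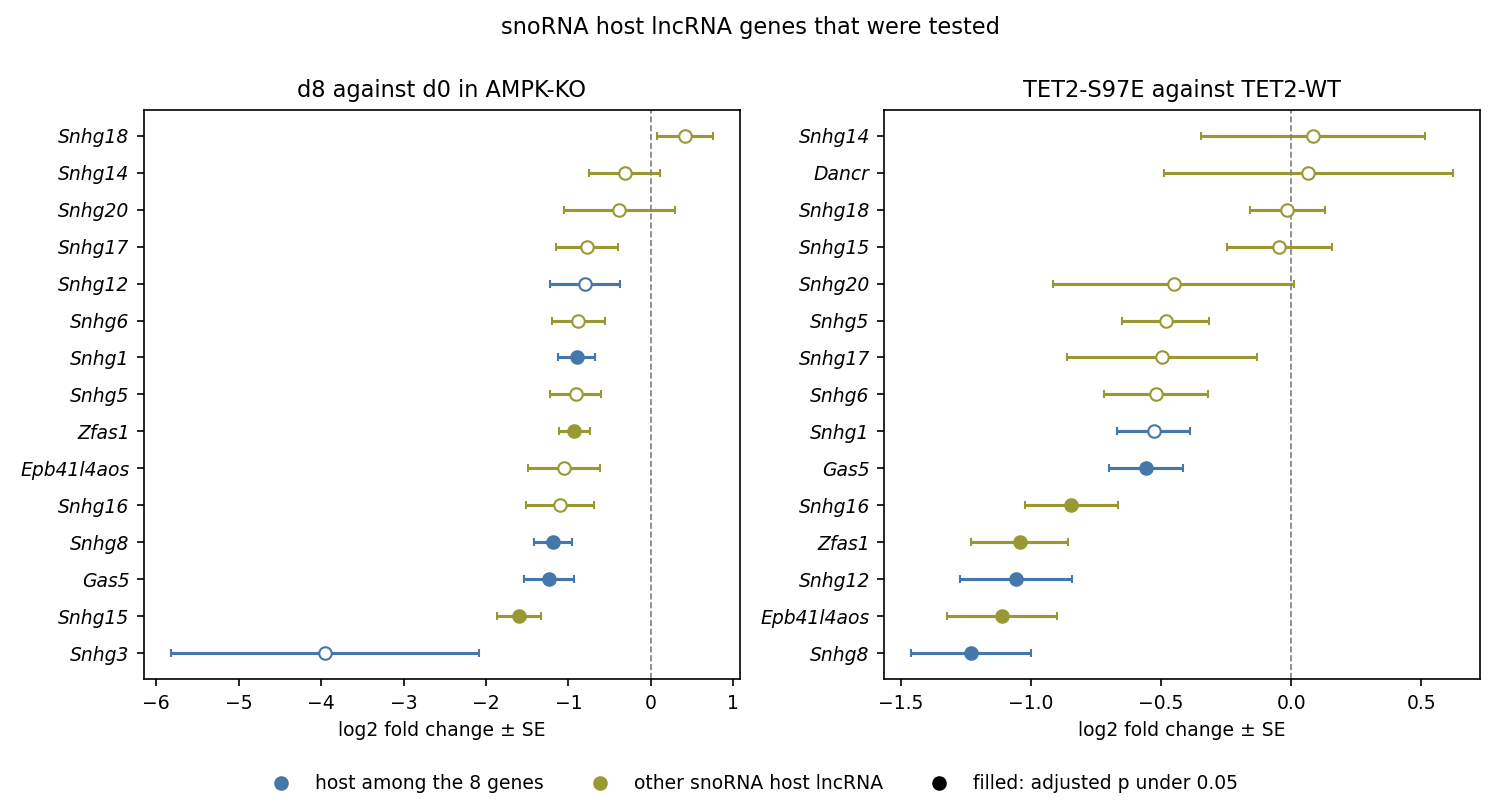
Fitted log2 fold changes (points) with standard errors (bars) for every snoRNA host lncRNA tested in d8 against d0 of AMPK-KO cells and in TET2-S97E against TET2-WT, with *Gas5*, *Snhg1*, *Snhg3*, *Snhg8* and *Snhg12* in blue where tested, the other listed hosts in olive, and filled points where the adjusted p was under 0.05. Most hosts of both colours lie left of 0 in both panels, and the far left point of *Snhg3* rests on 0 and 1 counts at d8.

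Part of the genes that act with the hosts fell from d0 to d8, where edgeR called 6.58% of all genes lower in WT and 4.95% in AMPK-KO. DESeq2 called 8.3% lower in AMPK-KO, and 19.3% in either direction in WT. At an unadjusted p under 0.05 edgeR counted 20.9% of all genes for AMPK-KO at d0, 22.8% at d8 and 23.5% for TET2-S97E. Of 15 snoRNP core and assembly genes tested, 6 fell from d0 to d8 in WT by edgeR (*Fbl*, *Nop56*, *Dkc1*, *Nhp2*, *Ruvbl1* and *Ruvbl2*) and 6 in AMPK-KO, with *Nop58* in place of *Ruvbl1*, and DESeq2 called 8 and 9 lower. *Fbl*, the methyltransferase of C/D box snoRNPs, and *Dkc1*, the pseudouridine synthase of H/ACA snoRNPs, were at 0.452 and 0.435 of their d0 levels in WT. Of the 15, edgeR called 0 for AMPK-KO at d0, 0 at d8 and 0 for TET2-S97E, against 8, 2 and 1 at an unadjusted p under 0.05 and 1, 0 and 1 by DESeq2. The medians were 0.55, 0.41 and 0.01. Of 20 other 5' TOP messages tested, 5 fell and 1 rose from d0 to d8 in WT and 7 fell in AMPK-KO, among them *Hnrnpa1*, an RNA-binding splicing regulator, at 0.313 and 0.354 of its d0 level. DESeq2 called 9 and 10 of the 20 lower and 1 higher in each genotype. *Npm1*, a nucleolar chaperone, was the 1 called in TET2-S97E (−0.67, adjusted p = 0.0398 by edgeR), and for AMPK-KO against WT edgeR called 0 at d0 and 0 at d8, with 5 on each day at an unadjusted p under 0.05 and 1 by DESeq2. Of 15 nonsense-mediated decay genes, 1 was called in TET2-S97E, *Rbm8a* of the exon junction complex (−0.79, adjusted p = 0.0113 by edgeR). *Eif4a3* of the same complex was called lower from d0 to d8 in AMPK-KO. With counts summed per clone edgeR called 0 of all genes for TET2-S97E, so the calls of *Npm1* and *Rbm8a* there were lost.

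Genes of the proteins that bind or process *Malat1* and *Neat1* fell in part from d0 to d8, where neither RNA was called in the filtered model. Of all genes, edgeR called 6.58% lower from d0 to d8 in WT and 4.95% in AMPK-KO. DESeq2 called 8.3% lower in AMPK-KO, and 19.3% in either direction in WT. At an unadjusted p under 0.05 edgeR counted 20.9% for AMPK-KO at d0, 22.8% at d8 and 23.5% for TET2-S97E. Of 18 paraspeckle protein genes, 5 were called lower from d0 to d8 in WT and 7 in AMPK-KO by edgeR, and 10 in each by DESeq2. *Sfpq*, *Rbm14*, *Tardbp* and *Dazap1* were among those called in both genotypes, and *Ewsr1* and *Taf15* among those called in AMPK-KO. *Rbm14* was at 0.431 of its d0 level in WT and 0.406 in AMPK-KO. In TET2-S97E 1 was called higher, *Fam98a* (0.58, adjusted p = 0.0302 by edgeR), with 4 at an unadjusted p under 0.05 and 2 called higher by DESeq2. Of all genes, edgeR called 3.71% higher in TET2-S97E. With counts summed per clone edgeR called 0 of all genes, so the call of *Fam98a* was lost. For AMPK-KO against WT both tools called 0 at d0 and 0 at d8, with 1 and 2 at an unadjusted p under 0.05 by edgeR. Of 14 nuclear speckle protein genes, *Srsf1*, *Srsf2* and *U2af2*, all splicing factors, were called lower from d0 to d8 in both genotypes by edgeR, and DESeq2 called 5 of the 14 lower in WT and 4 in AMPK-KO. In the comparisons of genotypes edgeR called 0 of the 14, with 1, 1 and 0 at an unadjusted p under 0.05 for AMPK-KO at d0, at d8 and TET2-S97E and 0, 1 and 0 by DESeq2. Of 11 genes of RNase P and RNase Z, which process the 3' ends of *Malat1* and *Neat1*, edgeR called *Pop1* alone, lower from d0 to d8 in WT (−1.21) and AMPK-KO (−1.69, where DESeq2 called 2 of the 11 lower) and higher in TET2-S97E (0.67, adjusted p = 0.0471 by edgeR). The replicate block ended this TET2-S97E call (adjusted p = 0.0585, edgeR), and with counts summed per clone 0 of all genes were called.

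Among 12 other nuclear or chromatin lncRNAs tested was *H19*, an imprinted RNA abundant in fetal muscle. By edgeR it was called higher in AMPK-KO on both days, and higher at d8 than at d0 in both genotypes. Whether it differed from the members was not tested. It was at 602 and 672 CPM in WT d0, 1755 and 2316 in AMPK-KO d0, 2435 and 3128 in WT d8, and 7013 and 9490 in AMPK-KO d8. AMPK-KO was above WT by 1.68 at d0 and 1.57 at d8 on the log2 scale, with adjusted p = 0.0218 and 0.0223 by edgeR. For TET2-S97E the change of *H19* was 1.48 with adjusted p = 0.0655 by edgeR. *Tug1* was called higher in AMPK-KO at d8 (0.71, adjusted p = 0.0328 by edgeR), *Mir22hg* rose from d0 to d8 in both genotypes, and 0 of the 12 were called for TET2-S97E by edgeR, with 4 at an unadjusted p under 0.05 and 1 higher and 1 lower by DESeq2. For TET2-S97E 23.5% of all genes were under that unadjusted p by edgeR. Of the 12, replicate 2 was more than 2-fold above replicate 1 in all 3 of the TET2 clones named above for 2 (*Xist* and *Kcnq1ot1*), in 1 or 2 of them for 3 and in none for 7. *Kcnq1ot1* and *Firre* were higher by 2.57-fold, 2.98-fold and 9.87-fold and by 2.66-fold, 1.70-fold and 2.61-fold. *Tug1* (1.09-fold to 1.47-fold) and *H19* (0.931-fold to 1.59-fold) in those clones were among the 7. Of 17 small structured RNAs listed, *Rn7sk* alone was tested in both tables, with 210, 417, 175 and 499 counts in TET2-WT and 114, 526, 70 and 285 in TET2-S97E, and by edgeR and DESeq2 0 were called in any comparison, with *Rn7sk* at an unadjusted p under 0.05 for AMPK-KO at d0 and d8.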

How the data were processed

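The values are the deposited gene counts of 16 libraries in 1 table per experiment, which the authors did not normalize. The submitters' processing notes name bcl2fastq 2.17, Trim Galore 0.4.5, STAR 2.5.3a and featureCounts 1.5.3, and per the labels a VAHTS kit for total RNA was used for the libraries. Per the paper's methods reads were aligned to GRCm38 and counted on GENCODE M12. Settings for strand and multi-mapping are not given in the sources used here. Identifiers were matched to GENCODE M21 (49326 of 49585 found), and TPM was computed here from merged exon lengths.

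Counts were tested in R 4.3.3 with edgeR 4.0.16 (filterByExpr, TMM, glmQLFit, glmQLFTest) and Benjamini-Hochberg adjustment over all genes tested, at 0.05. The WT and AMPK-KO model had 4 group means (4 residual degrees of freedom) and the TET2 model genotype (6). Clone differences came from a model of 4 clone groups. Two-sided exact tests of 2 libraries against 2 cannot go below p = 0.33 and were not used. Standard errors come from the fit. The common biological coefficient of variation was 0.281 and 0.299, and the fits were tested on simulated data.

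Alternatives were the DESeq2 size factors and DESeq2 1.42.0 Wald test, library sizes without the members, mitochondrial and small RNA genes, testing all genes unfiltered, requiring 10 counts per library throughout, adding a log2 fold change cutoff of 1, fitting the libraries of 1 day alone, a replicate block, each library left out, counts summed per clone, and limma 3.58.1 voom with a random clone effect. Libraries numbered replicate 1 alone or replicate 2 alone were added after the data were seen. Same-numbered libraries of the first table deviated together, with correlations over genes of 0.108 to 0.307, which meets the rule for pairing used here (every correlation over 0.1), so each result was also fitted with the replicate number as a block. In the TET2 table the rule was not met: TET2-WT clone 1 correlated with the other clones at −0.03 to 0.10, while the other 3 clones correlated with each other at 0.39 to 0.50.

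The members and the gene lists (other snoRNA hosts, other nuclear lncRNAs, paraspeckle, nuclear speckle, RNase P and Z, snoRNP, nonsense-mediated decay, 5' TOP and small structured RNA genes, and markers of C2C12, macrophage, endothelial, adipocyte and neuron cells) were chosen with earlier results of these data known. Named are the members, at most 3 genes of a list with the lowest adjusted p in the genotype comparisons, and the 3 genes most like each member. Some genes that this rule or these lists name are not reported here. List genes called in d8 against d0, and *Dnm3os*, *Rsrp1*, *Xist*, *Kcnq1ot1* and *Firre* as examples of the replicate pattern, were named after their values were seen.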

Additional observations from a re-analysis of the deposited data

Results flagged for a closer look

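In TET2-WT, 1 library stood apart from the other 3 for *Malat1* and for *Neat1*. The gap between the highest library and the next, divided by the range of the group, was 0.848 for *Malat1* and 0.928 for *Neat1*, above Dixon's critical value of 0.829 for 4 samples. The library was clone 2 replicate 2 for both genes. Chance flags about 1 in 20 groups in this way if values are normally distributed, which was not checked for these CPM values. Every member was screened in both TET2 genotypes. The flags of *Malat1* and *Neat1* fall on the same library and are not independent. *Miat* was also flagged in both TET2 genotypes, each with a gap over range of 1, but these rest on 2 counts in TET2-WT and 1 count in TET2-S97E, both in clone 2 replicate 2 and under the floor of 3 counts. *Gas5* in TET2-WT came close from below, at 0.821, with clone 1 replicate 1 as the lowest library.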

How the results depend on the processing

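The number of members called moved with the setting. AMPK-KO against WT at d0, with 0 members in the main analysis, had 1 with DESeq2, 2 with no filter on low counts, 1 with the replicate block and 0 to 1 with a library left out. At d8 no filter gave 1 (*Miat*, with 0 counts in AMPK-KO). From d0 to d8, WT had 1 with no filter and 0 to 1 with a library left out, and AMPK-KO, with 3, had 1 with the DESeq2 size factors, 3 with the DESeq2 test, 4 with no filter and 0 without any 1 of its 4 libraries. TET2-S97E, with 3, had 4 with DESeq2, 4 with library sizes that leave out the members, mitochondrial and small RNA genes, 0 to 3 with a library left out and 0 with counts summed per clone, with limma-voom, and with the libraries numbered replicate 1 alone or replicate 2 alone, which were chosen after seeing the data. Clone differences gave 2 in TET2-WT (*Malat1* and *Neat1*) and 1 in TET2-S97E (*Malat1*) with no filter.

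Over all genes the counts moved further. The counts with no filter come from a larger number of tested genes, which is not given here, so they have no share beside them. At d0 the 505 genes called became 1393 with DESeq2, 2026 with no filter, 204 with at least 10 counts in every library, 335 when that day was fitted alone and 17 to 437 with a library left out. At d8 the 766 became 1656, 2503, 277 under the same first 3 settings and 107 to 552 with a library left out. From d0 to d8, 1771 in WT became 2762 with DESeq2, 3293 with no filter and 0 to 2260 with a library left out, and 1398 in AMPK-KO became 2532, 3039 and 0 to 923. The interaction called 60 with DESeq2, 449 with no filter and 0 to 6 with a library left out. For TET2-S97E, 938 became 1825 with DESeq2, 552 with a log2 fold change cutoff of 1, 0 with counts summed per clone, 166 with limma-voom, 1 and 0 in the libraries numbered replicate 1 or 2 alone, and 304 to 1092 with a library left out. Clone differences became 894, 1627 and 0 to 140 in TET2-WT (124 in the main analysis) and 1383, 1680 and 488 to 580 in TET2-S97E (892), under DESeq2, no filter and a library left out.

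The replicate block changed 1 call of a member in the first table (*Gas5* at d0, adjusted p = 0.0414, edgeR) and 1 in the TET2 table, where the numbers did not meet the rule for pairing (*Gas5*, adjusted p = 0.0545, edgeR).

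Directions that turned did so mostly when a library was left out, and none of them belonged to a called value. For AMPK-KO against WT at d0 the ranges were −0.32 to 1.14 for *Malat1*, −1.26 to 3.32 for *Neat1* and −2.85 to 1.94 for *Snhg3*. At d8 they were −0.38 to 0.12 for *Malat1*, −0.57 to 0.41 for *Neat1*, −3.21 to 2.23 for *Snhg3* and −0.32 to 0.35 for *Snhg12*. From d0 to d8 they were −0.31 to 3.68 for *Neat1* and −0.67 to 0.26 for *Snhg12* in WT and −0.51 to 1.65 for *Neat1* in AMPK-KO. The interaction ran from −1.23 to 0.18 for *Malat1*, −3.48 to 1.05 for *Neat1* and −3.42 to 2.03 for *Snhg3*. For TET2-S97E the ranges were −0.24 to 1.5 for *Malat1* and −0.61 to 1.06 for *Neat1*, and *Neat1* was 0.0159 with limma-voom and *Malat1* −0.19 in the libraries numbered replicate 1 alone. Between TET2-WT clones they were −0.27 to 0.20 for *Snhg1*, −0.079 to 0.32 for *Gas5*, −0.20 to 1.06 for *Snhg3* and −0.54 to 0.069 for *Snhg12*, and *Snhg1* was 0.0037 with no filter and 0.0057 with at least 10 counts in every library. Between TET2-S97E clones they were −1.70 to 1.14 for *Neat1* and −2.37 to 0.63 for *Malat1*. The cause of these changes was not tested. A group reduced to 1 library in this way was assumed to vary like the others. *Snhg3* never had more than 16 counts and *Miat* never more than 10.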
